A study of Homo sapiens with 18 samples.

Results

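The HOX genes of 3 human pancreatic ductal adenocarcinoma cell lines were followed after small interfering RNA (siRNA) knockdown of KMT2D or KMT2C, a pair of related histone methyltransferases that act at enhancers. The genes described are 38 listed members of the HOXA, HOXB, HOXC and HOXD clusters, matched by symbol to 38 Ensembl identifiers among the 63677 identifiers of the count tables. They comprise 10 HOXA genes on chromosome 7, 10 HOXB genes on chromosome 17, 9 HOXC genes on chromosome 12 and 9 HOXD genes on chromosome 2. They were listed by name.

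PANC1 was derived from a primary ductal tumour, COLO357 from a lymph node metastasis and SUIT2 from a liver metastasis, so that each line stands for 1 tumour. Each line gave 2 libraries with KMT2D siRNA (siRNA1 and siRNA2), 3 with KMT2C siRNA (siRNA1, siRNA2 and siRNA3) and 1 with control siRNA, all made from cells transfected for 48 h, which gives 18 libraries of ribosome-depleted RNA. The comparisons asked which HOX genes are on in each line and whether loss of either methyltransferase changes them.

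HOX genes encode homeodomain transcription factors that give cells their position along the body axis. Within a cluster the genes lie in order of use, the low-numbered genes at the 3′ end acting towards the head and the high-numbered genes at the 5′ end towards the tail, and genes with the same number in different clusters are paralogs. Retinoic acid switches the clusters on from the 3′ end, Polycomb complexes keep silent stretches off, and the methyltransferase KMT2A keeps active ones on. KMT2C and KMT2D sit in complexes with KDM6A, a demethylase that removes the Polycomb mark. Cells in culture often keep the HOX pattern of the tissue they came from, and tumours can add genes to it.

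The clusters also hold microRNA genes whose products bind HOX messages. A microRNA recognises its targets mainly through bases 2 to 8, its seed. The mature sequences below are shown because their seed has a complementary stretch in the message of both HOX genes that were called with an siRNA against control. They are RefSeq sequences (GRCh38.p14), 5′ to 3′, with the seed in capitals. MIR196B lies in the HOXA cluster (chr7:27169528-27169549, minus strand), MIR196A2 in the HOXC cluster (chr12:53991762-53991783, plus strand) and MIR196A1 in the HOXB cluster (chr17:48632532-48632553, minus strand).
hsa-miR-196b-5p: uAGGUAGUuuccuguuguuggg
hsa-miR-196a-5p: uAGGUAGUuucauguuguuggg

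The 7-letter complement of that seed, ACTACCT, was searched on the message strand of the annotated 3′ untranslated regions (GENCODE v29, GRCh38). It occurred in 8 of 38 HOX genes (21.1%), namely HOXA5, HOXA7, HOXA9, HOXB1, HOXB6, HOXB7, HOXB13 and HOXC8, against 1511 of 19132 genes with such a region (7.9%). The stretches of HOXB7 (chr17:48607614-48607636, minus strand) and HOXC8 (chr12:54011494-54011516 and chr12:54012230-54012252, plus strand) are given 5′ to 3′ with the complement in capitals. A match describes letters in the message and is not a measured site, and no mature microRNA was measured in these libraries.
HOXB7: caacactgaaaaaatACTACCTa
HOXC8, first: acactcacaactctaACTACCTg
HOXC8, second: ataaatctttaacatACTACCTa

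The PANC1 libraries held 17974599 to 32115894 gene counts each, the COLO357 libraries 15822531 to 23950329 and the SUIT2 libraries 14205640 to 25632462. KMT2D mRNA lay at 34.8% to 84.7% of the same line's control with KMT2D siRNA (median 55.6%, n = 6) and KMT2C mRNA at 43.2% to 116% with KMT2C siRNA (median 64.1%, n = 9). Neither difference reached an adjusted p under 0.05 in edgeR's quasi-likelihood test (adjusted p = 0.211 for KMT2D and 0.437 for KMT2C). The library labelled PANC1 KMT2C siRNA2 held no less KMT2C mRNA than its control. The mRNA of the other methyltransferase lay above its control in some libraries and near it in others. With KMT2D siRNA, KMT2C mRNA lay at 92.7% (COLO357, siRNA1) to 274% (PANC1, siRNA2) of control. It was near control in COLO357 with siRNA2 (103%) and in SUIT2 with siRNA1 (94.4%) as well. With KMT2C siRNA, KMT2D mRNA lay at 99.1% (SUIT2, siRNA1) to 372% (PANC1, siRNA2). In some libraries the siRNA comparisons are thus not changes in 1 methyltransferase alone. Each of these values sets 1 library against 1 control, and no test of them is given. Of 8 ductal epithelial markers, the median reached 1 CPM (the counts-per-million scale, which corrects for depth) for 8 in PANC1, 8 in COLO357 and 7 in SUIT2, where MUC1 did not. None of 5 acinar and endocrine markers reached a median of 1 CPM in any line, and INS and GCG had no count in any library. Of 6 fibroblast markers, COL1A1 alone reached it, in each line. Of 4 endothelial markers CDH5 alone did, in COLO357, and of 6 leukocyte markers LYZ alone did, in SUIT2. Read pairs in no annotated feature exceeded 20% in 3 libraries, COLO357 KMT2C siRNA3 and SUIT2 KMT2C siRNA2 and siRNA3.

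A gene was taken as on in a line where the median of its 6 libraries was at least 1 CPM, as low from 0.1 CPM and as near 0 below that. By this measure PANC1 had 19 of 38 HOX genes on, COLO357 19 and SUIT2 13. With a limit of 1 CPM per kb of exon the counts were 17 in PANC1, 13 in COLO357 and 8 in SUIT2. The 9 genes on in all 3 lines were HOXA3, HOXB3, HOXB6, HOXB7, HOXB9, HOXB13, HOXC6, HOXC8 and HOXC9. A further 9 were on in 2 lines, 6 in 1 line and 14 in none. Those on in 1 line were HOXA5, HOXC13 and HOXD3 in PANC1, HOXA11 and HOXD8 in COLO357, and HOXA9 in SUIT2. In bulk RNA, fewer cells that express a gene and less RNA per cell cannot be told apart.

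**Figure D1:**
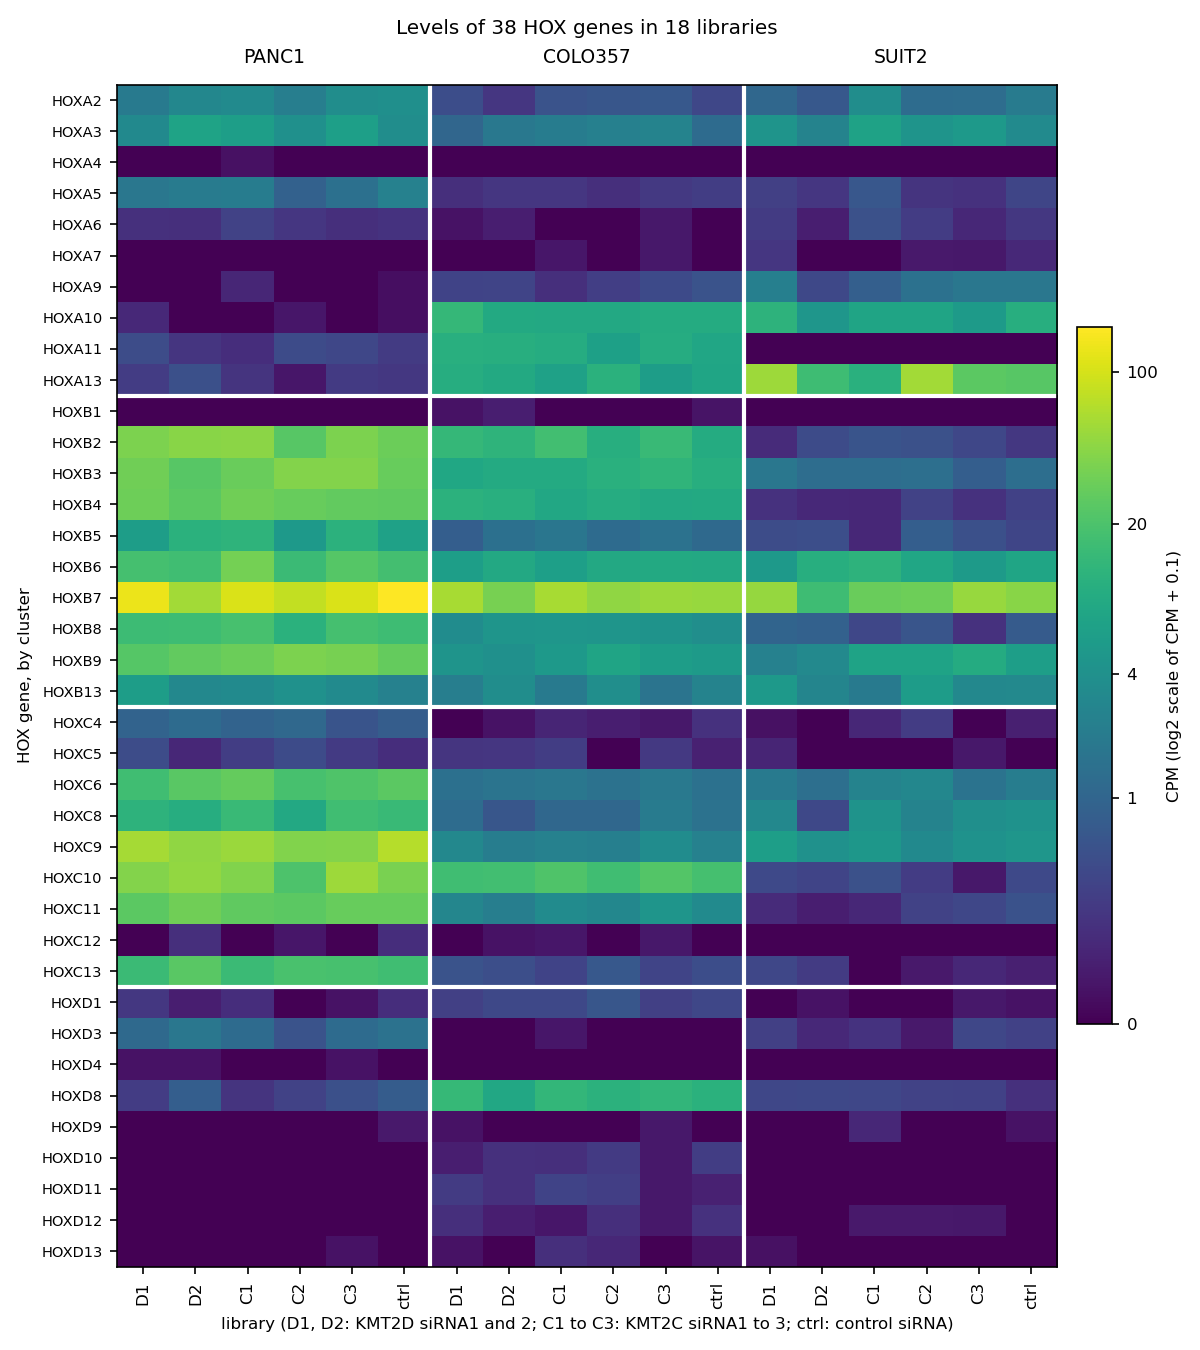
Levels of the 38 HOX genes (rows, by cluster) in the 18 libraries (columns, grouped by line, with siRNA libraries left of the control) as CPM on a log2 colour scale. Most HOXB and HOXC genes are brightest in PANC1, HOXA11 and HOXD8 stand out in COLO357, and HOXA13 is brighter in SUIT2 than in the other lines.

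Set side by side per kilobase of exon, HOXB7, which has been reported at raised levels in pancreatic adenocarcinoma, had the highest median of the 38 genes in each line. It reached 69.1 CPM per kb in PANC1, 34.4 in COLO357 and 24.3 in SUIT2. In PANC1 it was followed by HOXC9 (30.0 CPM per kb) and HOXC10 (17.3), which in mice help to set the identity of spinal motor neurons. In COLO357 it was followed by HOXC10 (7.63 CPM per kb) and HOXB2 (5.47), a hindbrain patterning gene. In SUIT2 the next were HOXA13 (4.77 CPM per kb), a gene of the hindgut, genital tract and limb tips, and HOXB6 (2.95). The leading gene was thus the same in the 3 lines, and those ranked next to it differed.

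Summed over all 38 genes, the level per library was 168 to 253 CPM per kb in PANC1 (median 221), 64.9 to 85.8 CPM per kb in COLO357 (median 79.1) and 26.6 to 61.0 CPM per kb in SUIT2 (median 50.6), without overlap between lines. The HOXB genes made up most of each sum, with medians of 138 CPM per kb in PANC1, 52.2 in COLO357 and 32.2 in SUIT2. The HOXC genes had medians of 79.6, 11.6 and 5.67 CPM per kb in PANC1, COLO357 and SUIT2. The HOXA genes ran the other way, with 4.16 CPM per kb in PANC1, 8.86 in COLO357 and 9.51 in SUIT2, and the libraries of COLO357 and SUIT2 overlapped. The HOXD genes had medians of 0.587 CPM per kb in PANC1, 5.16 in COLO357 and 0.228 in SUIT2, highest in COLO357.

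**Figure D2:**
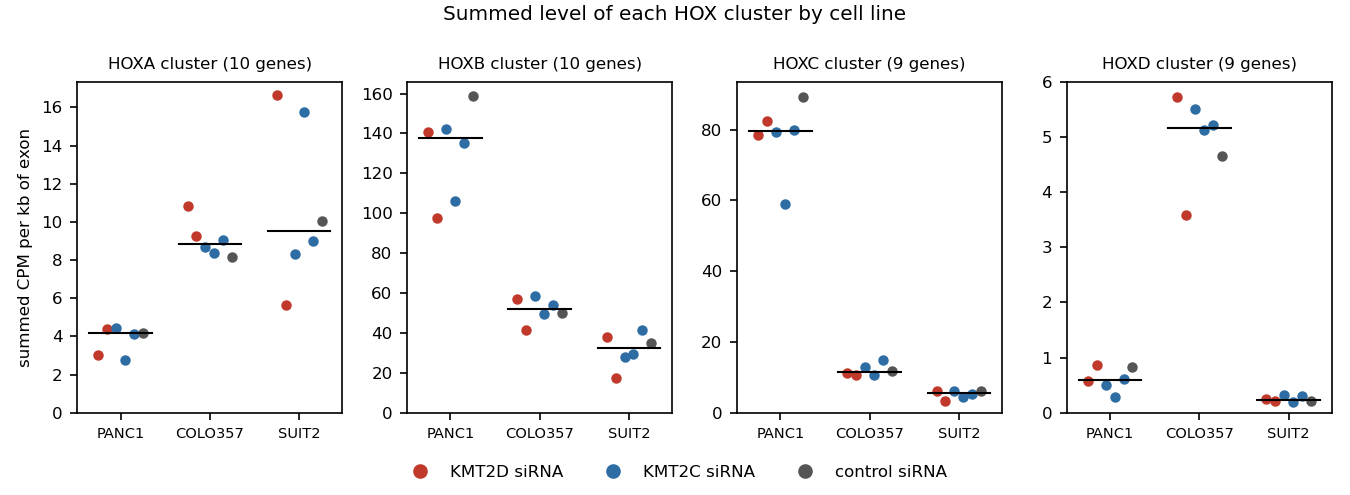
Summed level of each HOX cluster in CPM per kb of exon, with 1 point per library and a line at the median of 6 libraries of a cell line. The HOXB and HOXC sums are highest in PANC1 (medians 138 and 79.6) and the HOXD sum in COLO357 (5.16), while the HOXA sums of COLO357 and SUIT2 overlap.

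The lines were compared in 1 edgeR quasi-likelihood fit to all 18 libraries with cell line and target as terms, with Benjamini-Hochberg adjustment over 21028 genes and a call at an adjusted p under 0.05. The lines themselves differed in most genes: 66.8% of all genes tested were called for PANC1 against COLO357, 59.3% for PANC1 against SUIT2 and 59.7% for COLO357 against SUIT2. Of the 9 HOX genes on in all 3 lines, 8 were called higher in PANC1 than in COLO357 and 7 higher in PANC1 than in SUIT2. Between COLO357 and SUIT2, 1 of the 9 was called higher and 3 lower. In all, 28 of the 38 genes had enough counts to be tested, and 26, 24 and 20 of them were called in the 3 contrasts (26, 24 and 20 with DESeq2). A gene that enters the test because it is high in 1 line is bound to differ, so these last counts describe the genes and support nothing further. The 10 genes not tested were HOXA4, HOXA7, HOXB1, HOXC12, HOXD4, HOXD9, HOXD10, HOXD11, HOXD12 and HOXD13. The 3 contrasts share libraries, and the labels name no separate cultures, so p-values here and below measure the spread between these libraries.

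In the HOXA cluster the lines used different ends. PANC1 had the 3′ genes HOXA2, HOXA3 and HOXA5 on and none beyond them. COLO357 had HOXA3 at the 3′ end and HOXA10, HOXA11 and HOXA13 at the 5′ end. SUIT2 had HOXA2, HOXA3, HOXA9, HOXA10 and HOXA13 on.

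HOXA2, which patterns the hindbrain and the second pharyngeal arch, lay at 1.95 to 3.82 CPM in PANC1 (median 3.11), 0.219 to 0.660 CPM in COLO357 (median 0.516) and 0.660 to 3.68 CPM in SUIT2 (median 1.29). PANC1 and COLO357 did not overlap, and SUIT2 overlapped PANC1. It was called in all 3 contrasts, higher by 2.64 on the log2 scale in PANC1 than in COLO357 (SE 0.313, adjusted p = 1.26e-07, edgeR), and the call against SUIT2 (0.90, adjusted p = 0.00805) ended without the 3 libraries with over 20% of read pairs in no feature (0.67, adjusted p = 0.075). HOXA3, needed for the thymus and parathyroid, had medians of 5.07 CPM in PANC1, 1.98 in COLO357 and 4.51 in SUIT2. It was called in both contrasts with COLO357 and not in PANC1 against SUIT2 (0.20, SE 0.227, adjusted p = 0.472). HOXA5, a lung development gene in mice, lay at 0.887 to 2.44 CPM in PANC1, above the 0.167 to 0.283 CPM of COLO357 and the 0.188 to 0.645 CPM of SUIT2, and was called in both contrasts with PANC1. HOXA6 stayed below 1 CPM in each library, with medians of 0.190 CPM in PANC1, 0.0215 in COLO357 and 0.246 in SUIT2, and 40.1% of its exon length is shared with other annotated genes.

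HOXA9, which drives some leukaemias, had 4 counts in total over the 6 PANC1 libraries, a median of 0.347 CPM in COLO357 and one of 1.61 CPM in SUIT2. It was called in all 3 contrasts, and the SUIT2 and COLO357 libraries overlapped. HOXA10, a uterine patterning gene, was at 0 to 0.136 CPM in PANC1 (5 counts in total), 8.59 to 13.6 CPM in COLO357 and 4.75 to 11.7 CPM in SUIT2. PANC1 lay apart from both other lines (-7.90 against COLO357, SE 0.413, adjusted p = 1.13e-13; -7.58 against SUIT2, SE 0.415, adjusted p = 3.06e-13), and COLO357 and SUIT2 did not differ beyond their spread (0.31, SE 0.236, adjusted p = 0.263).

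HOXA11 gave the sharpest contrast between neighbours in a cluster. This gene of the forearm, kidney and uterus lay at 0.164 to 0.454 CPM in PANC1 and 6.59 to 10.5 CPM in COLO357 (median 9.55), and had 0 counts in all 6 SUIT2 libraries. Pooled over the libraries of a line, its level was at least 346-fold higher in COLO357 than in SUIT2 and at least 11.5-fold higher in PANC1 than in SUIT2, where 3 counts over the 6 SUIT2 libraries set the floor of 0.026 CPM. On either side of it, HOXA10 and HOXA13 were on in SUIT2. HOXA13 lay at 0.0554 to 0.510 CPM in PANC1, 5.94 to 11.1 CPM in COLO357 and 10.8 to 57.8 CPM in SUIT2. It was called in all 3 contrasts, lower by 1.90 on the log2 scale in COLO357 than in SUIT2 (SE 0.34, adjusted p = 8.27e-05), and the lowest SUIT2 library (KMT2C siRNA1, 10.8 CPM) lay below the highest COLO357 library (KMT2C siRNA2, 11.1 CPM). HOXA4 had 1 count in the whole series and HOXA7 had 13, of which 11 were in SUIT2. Other annotated genes share 47.3% of the exon length of HOXA4, 62.5% of HOXA7, 26.3% of HOXA10 and 31.1% of HOXA11. HTSeq marked 4.77% to 7.14% of read pairs per library as ambiguous between genes, and these were left out. Genes with shared exons may have lost counts in this way, which was not tested, and CPM per kb still divides by full exon length. Which overlaps are covered depends on the annotation and the strand setting, which are not given.

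In the HOXB cluster 9 of 10 genes were on in PANC1 and in COLO357 and 5 in SUIT2. The genes that were low in SUIT2 were HOXB2, HOXB4, HOXB5 and HOXB8, while HOXB3, HOXB6, HOXB7, HOXB9 and HOXB13, which lie between or beyond them, had medians of 1 CPM or more. HOXB1, a hindbrain gene, had 4 counts in the series, all in COLO357.

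HOXB4, a regulator of blood stem cells, lay at 25.1 to 32.3 CPM in PANC1, 8.39 to 11.6 CPM in COLO357 and 0.129 to 0.333 CPM in SUIT2. No 2 lines overlapped, and PANC1 was higher than SUIT2 by a log2 difference of 7.03 (SE 0.225, adjusted p = 3.12e-17). HOXB2 showed the same order, at 23.7 to 44.0 CPM in PANC1, 9.23 to 17.0 CPM in COLO357 and 0.151 to 0.581 CPM in SUIT2 (6.61 for PANC1 against SUIT2, SE 0.264, adjusted p = 1.11e-15). HOXB3, a hindbrain gene, had medians of 31.2, 9.61 and 1.34 CPM in PANC1, COLO357 and SUIT2, and HOXB8, known from microglia in mice, had 16.1, 4.46 and 0.663 CPM. HOXB5, active in the enteric nervous system, had medians of 8.92, 1.33 and 0.468 CPM. All 5 genes were called in all 3 contrasts, in the order PANC1, COLO357, SUIT2.

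The other HOXB genes differed less between COLO357 and SUIT2. HOXB6 lay at 15.1 to 34.1 CPM in PANC1, 6.19 to 8.87 CPM in COLO357 and 5.13 to 11.8 CPM in SUIT2. HOXB7 lay at 57.8 to 161 CPM in PANC1, 35.7 to 61.6 CPM in COLO357 and 16.0 to 52.2 CPM in SUIT2. Its COLO357 range overlapped both others, and those of PANC1 and SUIT2 did not overlap. HOXB9, which shapes the ribs in mice, lay at 22.9 to 37.8 CPM in PANC1, 4.02 to 7.38 CPM in COLO357 and 2.45 to 9.41 CPM in SUIT2. All 3 were called higher in PANC1 than in either other line, and none was called for COLO357 against SUIT2 (adjusted p = 0.927, 0.0831 and 0.853 for HOXB6, HOXB7 and HOXB9).

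HOXB13, the last HOXB gene and a lineage factor of the prostate, was the 1 tested gene called in no contrast. It lay at 2.44 to 5.99 CPM in PANC1, 1.62 to 3.71 CPM in COLO357 and 1.94 to 5.79 CPM in SUIT2, and the 3 ranges overlapped. The fitted differences were 0.47 for PANC1 against COLO357 (SE 0.271, adjusted p = 0.134), 0.01 for PANC1 against SUIT2 (SE 0.269, adjusted p = 0.986) and -0.46 for COLO357 against SUIT2 (SE 0.273, adjusted p = 0.155). A p above the threshold does not show that the lines are equal.

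In the HOXC cluster 6 of 9 genes were on in PANC1, 5 in COLO357 and 3 in SUIT2. HOXC9 lay at 40.2 to 71.6 CPM in PANC1, 2.19 to 3.54 CPM in COLO357 and 3.20 to 6.19 CPM in SUIT2. It was higher by 4.27 on the log2 scale in PANC1 than in COLO357 (SE 0.193, adjusted p = 8.29e-15). HOXC6 lay at 16.7 to 28.1 CPM in PANC1, above the 1.42 to 1.86 CPM of COLO357 and the 1.36 to 2.93 CPM of SUIT2. HOXC8, which acts in the ribs and the motor neurons of the forelimb in mice, lay at 8.54 to 16.5 CPM in PANC1, 0.612 to 2.04 CPM in COLO357 and 0.396 to 4.32 CPM in SUIT2. For these 3 genes PANC1 stood apart from both other lines.

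The 5′ genes of the cluster were graded. HOXC10 lay at 20.7 to 55.2 CPM in PANC1, 16.9 to 22.3 CPM in COLO357 and 0.0628 to 0.516 CPM in SUIT2, so PANC1 and COLO357 overlapped and SUIT2 stood apart. HOXC11 lay at 24.6 to 32.8 CPM in PANC1, 2.27 to 4.62 CPM in COLO357 and 0.0881 to 0.545 CPM in SUIT2, without overlap. HOXC13, a gene of hair and nail, lay at 15.2 to 24.5 CPM in PANC1, 0.336 to 0.667 CPM in COLO357 and 0 to 0.377 CPM in SUIT2. All 3 were called in all 3 contrasts. HOXC12, which lies between HOXC11 and HOXC13, had 10 counts in PANC1, 3 in COLO357 and 0 in SUIT2, so an almost silent gene sat between 2 genes that were on in PANC1. HOXC4 had a median of 0.949 CPM in PANC1, just under the limit for on, and HOXC5 had 0.270 CPM. Of the HOXC5 exon length, 59.9% is shared with other identifiers, among them another that GENCODE v29 also names HOXC5. Counts of that identifier are not part of the HOXC5 level, and it shares exon sequence with HOXC6 too.

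The HOXD cluster was almost silent except for 1 gene in COLO357. HOXD8 lay at 0.205 to 0.808 CPM in PANC1, 8.36 to 13.8 CPM in COLO357 and 0.182 to 0.396 CPM in SUIT2. COLO357 was higher than SUIT2 by a log2 difference of 5.14 (SE 0.299, adjusted p = 1.25e-12), and PANC1 was not called against SUIT2 (0.56, SE 0.344, adjusted p = 0.17). HOXD3 was the 1 HOXD gene on in PANC1, at 0.554 to 1.74 CPM, with 1 count in all of COLO357 and 0.0666 to 0.377 CPM in SUIT2. HOXD1, which acts in pain-sensing neurons in mice, lay at 0 to 0.227 CPM in PANC1 and 0.300 to 0.626 CPM in COLO357, with 3 counts in SUIT2. The digit and limb genes HOXD9, HOXD10, HOXD11, HOXD12 and HOXD13 had from 7 to 26 counts each over the 18 libraries. HOXD10 and HOXD11 had counts in COLO357 alone (22 and 26), and HOXD4 had 3 counts, all in PANC1.

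Among the 9 genes on in all 3 lines, the range between line medians was set beside the widest range among the 6 libraries of a line, both in log2 CPM. It was 4.44 against 1.04 for HOXB3, 4.29 against 0.93 for HOXC9 and 3.78 against 1.05 for HOXC6, so these genes varied more between lines than among libraries. The gap was small for HOXB6 (1.21 against 1.19) and HOXC8 (3.40 against 3.17). HOXA3 (1.28 against 1.41), HOXB7 (1.52 against 1.70) and HOXB13 (0.44 against 1.54) varied at least as much among the libraries of 1 line as between lines. HOXB9 lay between these, at 2.44 against 1.90. The widest range was that of SUIT2 for each of the 9 genes.

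Long noncoding RNAs from the clusters were taken from a list of 20 cluster genes, of which 15 were tested. For PANC1 against COLO357, PANC1 against SUIT2 and COLO357 against SUIT2, 12, 14 and 14 were called. Of all genes tested, 66.8%, 59.3% and 59.7% were called in these contrasts. As with the HOX genes, a gene tested because it is high in 1 line is bound to differ. This holds for the lists that follow too. HOTAIR, transcribed from the HOXC cluster between HOXC11 and HOXC12 and known to bind Polycomb complexes, had medians of 16.0 CPM in PANC1, 1.40 in COLO357 and 0.0773 in SUIT2. HOXC13-AS had medians of 4.81, 0.362 and 0 CPM, the order of HOXC13 itself. HOTTIP, which lies beyond HOXA13 and is known to maintain the 5′ HOXA genes, had no count in PANC1 and medians of 0.109 CPM in COLO357 and 1.81 CPM in SUIT2, the order of HOXA13. Others did not follow their neighbours. HOXA11-AS had medians of 0.0165, 0.875 and 0.144 CPM in PANC1, COLO357 and SUIT2, while HOXA11 had no count in SUIT2. HOXB-AS4 had medians of 2.13, 2.47 and 1.55 CPM and was not called for PANC1 against COLO357. The strand setting of the counting is not given. Whether reads of overlapping sense and antisense genes were assigned by strand or set aside as ambiguous cannot be told.

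Among 11 genes for HOX cofactors, which bind DNA together with HOX proteins, 10 were tested. Of these, 9, 8 and 7 were called in the same 3 contrasts, where 66.8%, 59.3% and 59.7% of all genes tested were called. MEIS1 had medians of 0.519 CPM in PANC1, 23.4 in COLO357 and 44.7 in SUIT2. Others ran the other way, such as PBX3, with medians of 32.4 CPM in PANC1, 6.54 in COLO357 and 17.5 in SUIT2. Of those called for PANC1 against COLO357, 6 were higher and 3 lower. Among 31 listed regulators of the clusters, 29 were tested and 23, 20 and 22 were called. KDM6A, the partner of KMT2C and KMT2D, had medians of 52.3 CPM in PANC1, 77.6 in COLO357 and 0.0189 in SUIT2. CDX2, an intestinal homeobox factor that binds HOX clusters, had medians of 1.09 CPM in PANC1, 2.39 in COLO357 and 21.4 in SUIT2. Of 22 genes that flank the clusters, 19 were tested and 14, 14 and 10 were called.

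Few HOX genes were called after knockdown. With each target's siRNAs pooled in 1 group, edgeR called none of the 28 tested genes with KMT2D siRNA (1.20% of all genes tested were called) and none with KMT2C siRNA (0.281%), and DESeq2 called none in either. At an unadjusted p under 0.05 there were 3 with KMT2D siRNA (10.7%, against 12.6% of all genes tested) and 1 with KMT2C siRNA (3.57%, against 9.18%). The median fitted log2 fold change of the 28 was -0.03 with KMT2D siRNA, against 0.02 over all genes tested, and 0.02 with KMT2C siRNA, against 0.00. The siRNA comparisons share the 3 control libraries, 1 per line, so that 1 unusual control touches all of them.

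The siRNAs were then fitted singly, each with 1 library in each line. With KMT2D siRNA1, KMT2D mRNA lay at 79.9%, 43.5% and 34.8% of control in PANC1, COLO357 and SUIT2. With KMT2D siRNA2 it lay at 84.7%, 45.5% and 65.8%, a smaller fall in each line. Whether the HOX changes below follow the level of KMT2D was not tested. With KMT2D siRNA2, 2 of the 28 genes fell, HOXB7 and HOXC8, where 8.92% of all genes tested were called (DESeq2 called the same 2). HOX genes were thus called at about the rate of all genes, 7.14% if set as 2 of 28. KMT2D siRNA1 (4.02% of all genes called), KMT2C siRNA1 (1.20%), KMT2C siRNA2 (5.81%) and KMT2C siRNA3 (0.623%) each gave 0 called HOX genes with edgeR and with DESeq2, and 2, 2, 5 and 1 of the 28 at an unadjusted p under 0.05. Those are 7.14%, 7.14%, 17.9% and 3.57% of the tested HOX genes, against 17.6%, 11.2%, 19.6% and 10.5% of all genes tested.

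**Figure D3:**
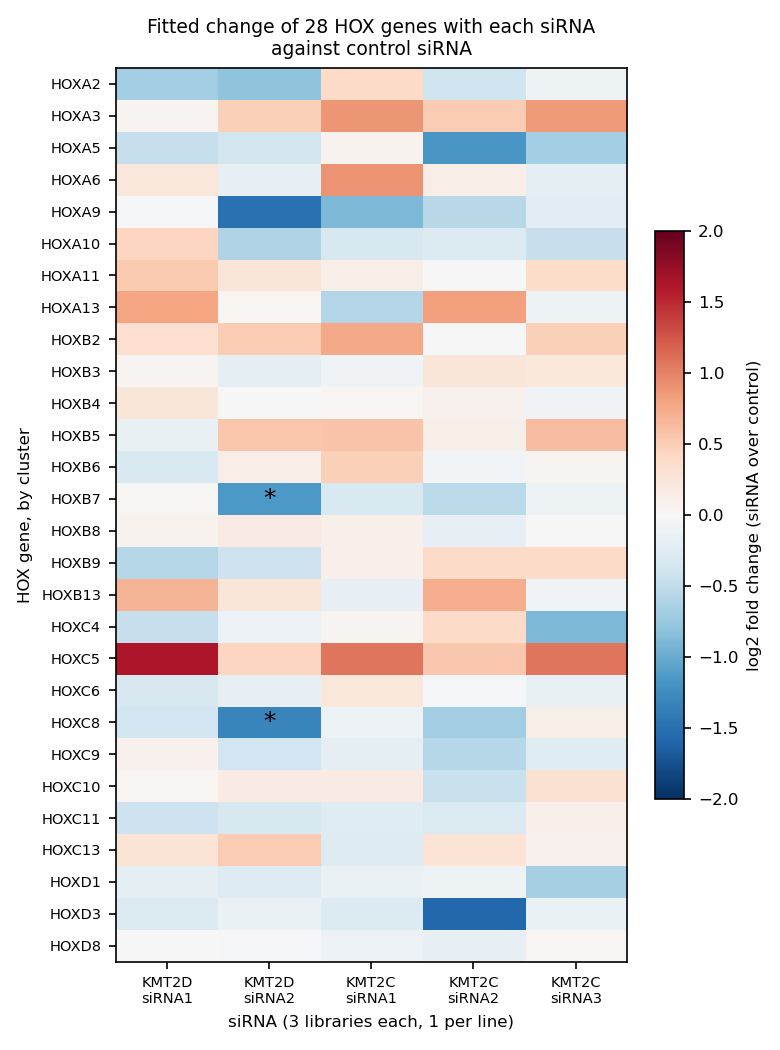
Fitted log2 fold change (colour, siRNA over control, edgeR) of the 28 tested HOX genes (rows) with each of the 5 siRNAs (columns), where an asterisk marks a call at an adjusted p under 0.05. The 2 asterisks stand on HOXB7 (-1.15) and HOXC8 (-1.33) with KMT2D siRNA2, and strong colours elsewhere include genes with few counts, such as HOXC5 and HOXD3.

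HOXB7, whose message carries the miR-196 complement shown above, fell with KMT2D siRNA2 and lay below its control in 3 of 3 lines. It lay at 57.8 CPM in PANC1 with KMT2D siRNA2, against 161 CPM with control. In COLO357 it lay at 35.7 CPM, against 51.9 CPM with control, and in SUIT2 at 16.0 CPM, against 42.9 CPM with control. In each line this was the lowest of the 6 libraries. The fitted change was -1.15 on the log2 scale (SE 0.198, adjusted p = 0.000512), or 2.22-fold lower, and it was below the threshold with every library left out in turn.

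With KMT2D siRNA1, HOXB7 lay at 128 CPM in PANC1, 61.6 in COLO357 and 49.5 in SUIT2, below its control in 1 line and above it in 2 (0.02, SE 0.194, adjusted p = 0.983). The 2 KMT2D siRNAs were not tested against each other. With KMT2C siRNA1, siRNA2 and siRNA3 it lay at 107, 81.6 and 105 CPM in PANC1, where the control of 161 CPM was the highest of the 6 libraries. It lay at 60.9, 47.8 and 53.3 CPM in COLO357 and at 29.8, 31.5 and 52.2 CPM in SUIT2 with the same siRNAs. None of these passed the test, and the nearest was KMT2C siRNA2 (-0.54, SE 0.196, adjusted p = 0.11), which passed without the COLO357 control library.

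HOXC8, which carries 2 copies of the complement, lay at 9.997 CPM in PANC1 with KMT2D siRNA2, against 14.8 CPM with control. It lay at 0.612 CPM in COLO357, against 1.51 CPM with control, and at 0.396 CPM in SUIT2, against 4.27 CPM with control. The gap was widest in SUIT2, and with KMT2D siRNA2 the gene lay under the 1 CPM limit in both COLO357 and SUIT2. The fitted change was -1.33 (SE 0.36, adjusted p = 0.0214), or 2.51-fold lower, and lay between -2.33, without PANC1 KMT2D siRNA2, and -0.81, without SUIT2 KMT2D siRNA2, when single libraries were left out. This call rested on single libraries: it ended without the PANC1 control, without the SUIT2 control and without SUIT2 KMT2D siRNA2, with an adjusted p of up to 0.0943. With KMT2D siRNA1 the gene lay at 11.8 CPM in PANC1, 1.25 in COLO357 and 3.02 in SUIT2, below its control in each line and not called (-0.38, SE 0.344, adjusted p = 0.635).

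Of the 8 genes with the miR-196 complement, 6 were tested, and with KMT2D siRNA2 4 of them had a negative fitted change, with a median of -0.76. Of the 22 tested genes without it, 13 were negative, with a median of -0.07. The search was made after the calls were known and has no test. HOXB7 and HOXC8, whose calls prompted it, are among the 6. The median of the 6 is thus low in part by that choice, and no conclusion is drawn from it. The siRNA sequences were not used here, and a match of an siRNA's own seed to HOX messages was not tested.

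**Figure D4:**
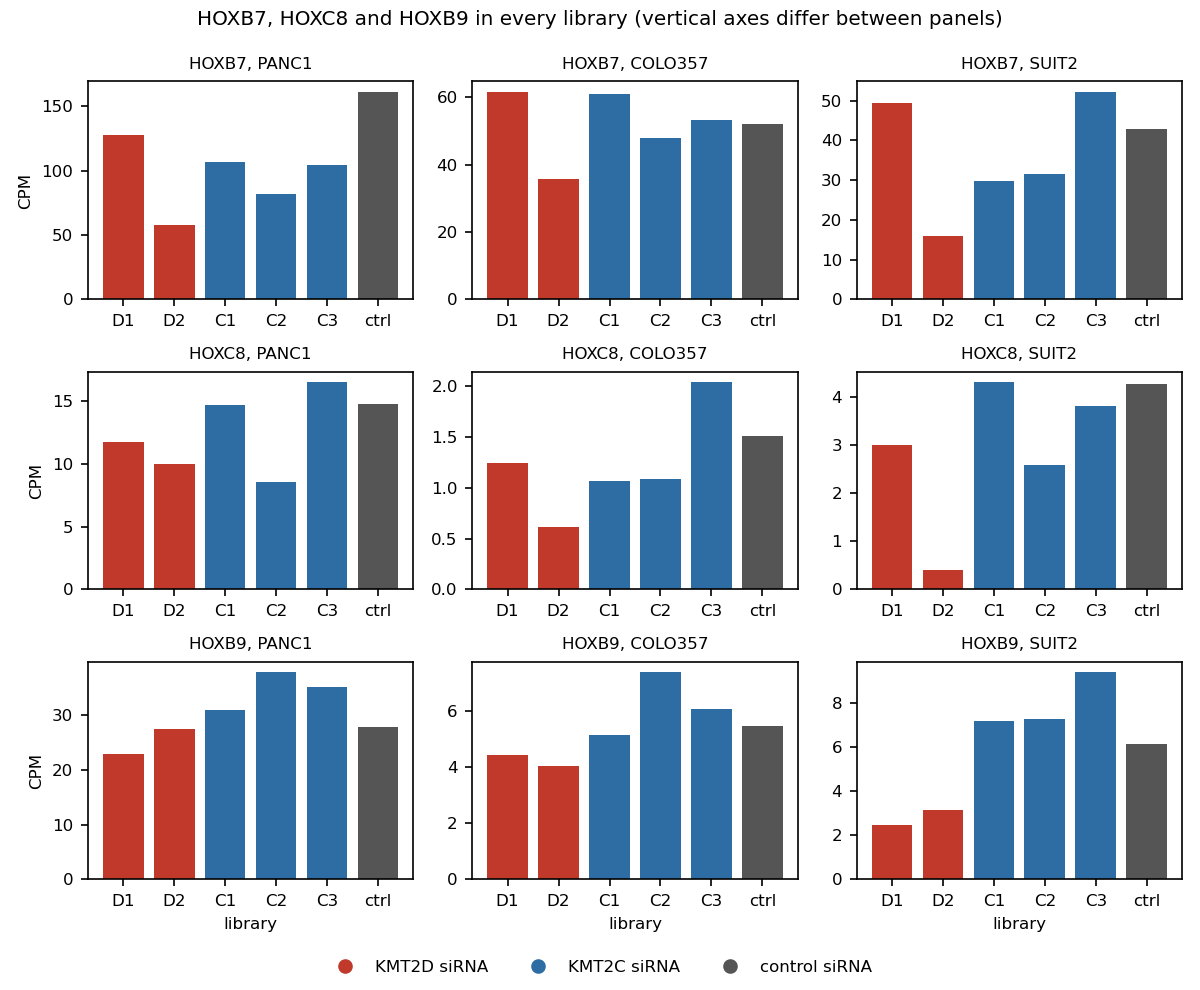
Level in CPM of HOXB7, HOXC8 and HOXB9 (rows) in each library of the 3 lines (columns), with the siRNA libraries left of the control and separate vertical axes. HOXB7 is lowest with KMT2D siRNA2 in each line, HOXC8 drops to 0.396 CPM in SUIT2 with that siRNA, and HOXB9 is lower with both KMT2D siRNAs than with any KMT2C siRNA in each line.

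With KMT2C siRNA set against KMT2D siRNA, 1 of the 28 HOX genes was called, HOXB9, where 5.17% of all genes tested were called (DESeq2, 1). With KMT2C siRNA1, siRNA2 and siRNA3, HOXB9 lay at 30.9, 37.8 and 35.1 CPM in PANC1, against 22.9 and 27.4 CPM with KMT2D siRNA1 and siRNA2. In COLO357 it lay at 5.15, 7.38 and 6.06 CPM, against 4.43 and 4.02 CPM, and in SUIT2 at 7.17, 7.26 and 9.41 CPM, against 2.45 and 3.17 CPM. The KMT2C and KMT2D libraries of a line did not overlap in any line, and the controls, at 27.7 CPM in PANC1, 5.46 in COLO357 and 6.14 in SUIT2, stood between or within the KMT2C values.

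The fitted difference was 0.80 on the log2 scale (SE 0.167, adjusted p = 0.00994), or 1.74-fold higher with KMT2C siRNA. With siRNAs as a replicate block in limma-voom it was 0.71, with an adjusted p of 0.0718. Against control, HOXB9 was at -0.50 with KMT2D siRNA (SE 0.215, adjusted p = 0.333), below control in 6 of 6 libraries, and at 0.30 with KMT2C siRNA (SE 0.208, adjusted p = 0.702), and neither was called. HOXA5 and HOXC8 also lay below control in all 6 KMT2D libraries, and the libraries of a line share 1 control. HOXA2 came next in this contrast (0.75, SE 0.278, adjusted p = 0.112), then HOXA3 (0.48, SE 0.215, adjusted p = 0.192).

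The remaining genes with the smallest p in a comparison did not pass. Besides HOXB9, those with KMT2D siRNA were HOXA2 (-0.74, SE 0.351, adjusted p = 0.386) and HOXC8 (-0.79, SE 0.377, adjusted p = 0.393). HOXA2 lay at 1.95 and 2.94 CPM in PANC1 with KMT2D siRNA1 and siRNA2, against 3.82 CPM with control, and at 1.09 and 0.660 CPM in SUIT2, against 2.09 CPM with control. In COLO357, where the gene is low, the values were 0.473 and 0.219 CPM, against 0.377 CPM with control.

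With KMT2C siRNA the smallest p was that of HOXA3 (0.76, SE 0.281, adjusted p = 0.394), which was above its control in 9 of 9 libraries. Libraries of a line share 1 control, so these directions are not independent. HOXA3 lay above its control in each line as follows. It lay at 6.21, 3.94 and 6.41 CPM in PANC1 with KMT2C siRNA1, siRNA2 and siRNA3, against 3.69 CPM with control. In COLO357 the values were 2.13, 2.42 and 2.64 CPM, against 1.23 CPM with control, and in SUIT2 7.04, 4.53 and 5.40 CPM, against 3.32 CPM with control. Next were HOXB2 (0.47, SE 0.251, adjusted p = 0.587) and HOXC9 (-0.30, SE 0.198, adjusted p = 0.671).

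By single siRNA, HOXA3 and HOXB2 were again among the 3 smallest p with KMT2C siRNA1 (0.88, adjusted p = 0.212, and 0.75, adjusted p = 0.153) and with KMT2C siRNA3 (0.85, adjusted p = 0.296, and 0.48, adjusted p = 0.496). These siRNA comparisons use the same controls. The next was HOXB6 with siRNA1 (0.48, adjusted p = 0.523) and HOXB5 with siRNA3 (0.61, adjusted p = 0.576). With KMT2C siRNA2, HOXB7 was followed by HOXA5 (-1.16, SE 0.426, adjusted p = 0.115) and HOXC9 (-0.56, SE 0.209, adjusted p = 0.12). With KMT2D siRNA1 the smallest p were those of HOXB9 (-0.57, SE 0.238, adjusted p = 0.203), HOXB13 (0.68, SE 0.305, adjusted p = 0.245) and HOXA13 (0.79, SE 0.393, adjusted p = 0.311).

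HOXA13 spread widely in SUIT2 with no call. It lay at 54.8 and 16.1 CPM with KMT2D siRNA1 and siRNA2 and at 10.8, 57.8 and 24.9 CPM with KMT2C siRNA1, siRNA2 and siRNA3, against 23.7 CPM with control. The 2 highest libraries belonged to siRNAs against different targets, and siRNAs of each target lay on both sides of the control.

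The number of HOX genes at 1 CPM or more ranged per library over 18 to 20 for PANC1, 18 to 19 for COLO357 and 10 to 13 for SUIT2. The lowest, 10, was SUIT2 with KMT2D siRNA2, where HOXA2, HOXA9 and HOXC8 lay under 1 CPM and their control values were 2.09, 1.77 and 4.27 CPM. No siRNA library took a gene that was near 0 in a line to 1 CPM. The 1 gene that crossed the limit upwards was HOXC4 in PANC1, at 1.23 CPM with KMT2D siRNA2 and 1.11 CPM with KMT2C siRNA2, against 0.790 CPM with control.

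Within single lines, where the fit gave the lone control the spread of the other groups, no HOX gene was called with KMT2D siRNA in PANC1 (0% of all genes called), COLO357 (0%) or SUIT2 (0.0380%, 8 genes), nor with KMT2C siRNA in PANC1 (0%), COLO357 (0%) or SUIT2 (0.00476%, 1 gene). DESeq2 called none in any of the 6. At an unadjusted p under 0.05 edgeR gave 2 HOX genes with KMT2D siRNA in SUIT2 and none in the other 5 comparisons. That is 7.14% of the tested HOX genes, against 7.85% of all genes tested in SUIT2. The 2 were HOXB9 (-1.13, SE 0.328, adjusted p = 0.283) and HOXC11 (-2.11, SE 0.633, adjusted p = 0.297), the second at 0.151 and 0.0881 CPM with KMT2D siRNA1 and siRNA2, against 0.545 CPM with control. Next was HOXA2 (-1.24, adjusted p = 0.659). In PANC1 the smallest p with KMT2D siRNA were those of HOXB7 (-0.80, adjusted p = 0.9), HOXB13 and HOXC9, and in COLO357 those of HOXC4, HOXA6 and HOXB9, each with an adjusted p of 1. With KMT2C siRNA they were HOXC9, HOXD8 and HOXB7 in PANC1, HOXA3, HOXB2 and HOXC4 in COLO357, and HOXC11, HOXB8 and HOXB2 in SUIT2, each with an adjusted p of 0.991 or more.

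Whether an effect differed between lines was tested on the same fit. No HOX gene was called for KMT2D siRNA (0% of all genes) or for KMT2C siRNA (0%), with 1 and 0 at an unadjusted p under 0.05, and DESeq2 was not run for this test. The gene was HOXC11 with KMT2D siRNA (adjusted p = 1), followed by HOXC4 and HOXB9. For KMT2C siRNA the smallest p were those of HOXD8, HOXB8 and HOXC11.

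Genes around the clusters were examined from the same 4 lists. The share of all genes tested that were called was 1.20% with KMT2D siRNA and 0.281% with KMT2C siRNA. It was 5.17% with KMT2C siRNA against KMT2D siRNA. By single siRNA it was 4.02% and 8.92% with KMT2D siRNA1 and siRNA2. With KMT2C siRNA1, siRNA2 and siRNA3 it was 1.20%, 5.81% and 0.623%. Of 15 tested cluster noncoding genes, 1 fell with KMT2D siRNA, HOXB-AS4, an antisense RNA of the HOXB cluster (-1.28, SE 0.308, adjusted p = 0.0411). It lay at 2.13 and 1.79 CPM in PANC1 with KMT2D siRNA1 and siRNA2, against 3.79 CPM with control, at 1.63 and 1.27 CPM in COLO357, against 3.20 CPM, and at 0.453 and 0.396 CPM in SUIT2, against 1.82 CPM. All 6 libraries lay below their control, but the call ended without any of 9 single libraries, the 3 controls among them, with an adjusted p of up to 0.225, and with siRNA as a replicate block in limma-voom (adjusted p = 0.197). It was also called with KMT2D siRNA2 alone (-1.41, SE 0.345, adjusted p = 0.0103), a call that ended without the SUIT2 KMT2D siRNA2 library (adjusted p = 0.0615). It was higher with KMT2C than with KMT2D siRNA (0.98, SE 0.249, adjusted p = 0.0278), which ended with any of several libraries left out and with the block (adjusted p = 0.102). No noncoding gene of the list was called with KMT2C siRNA against control.

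Of 29 tested regulators, 1 fell with KMT2D siRNA, the retinoic acid receptor RARG (-1.01, SE 0.213, adjusted p = 0.0185), and the call ended without the COLO357 control or without the SUIT2 control (adjusted p up to 0.257), and with siRNA as a replicate block in limma-voom (adjusted p = 0.156). None was called with KMT2C siRNA, KMT2C siRNA1 or KMT2C siRNA3. With KMT2D siRNA2, where 8.92% of all genes tested were called, 5 fell and 1 rose. The fall of the Polycomb subunit EED (-1.03, SE 0.171, adjusted p = 0.000358) held with every library left out. The others that fell were PSIP1 (-0.82), RARG (-0.91), DOT1L (-0.66) and RNF2 (-0.59), and AFF4 rose (0.53), and each of these calls ended with at least 1 library left out. With KMT2C siRNA2, EED (-1.44, SE 0.174, adjusted p = 9.28e-06) and SUZ12 (-0.86, SE 0.156, adjusted p = 0.00116), both core subunits of the Polycomb methyltransferase, fell. With KMT2D siRNA1, RARA (adjusted p = 0.00304) and RARG (-1.11) fell and CBX2 (0.75) rose, and the calls of RARG and CBX2 ended with at least 1 library left out. With KMT2C siRNA against KMT2D siRNA, RARG (0.96), DOT1L (0.76), RARA (0.68) and RNF2 (0.46) were higher, and those of RARA and RNF2 ended likewise, and with the siRNA block (adjusted p up to 0.119).

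Of 10 tested cofactors, none was called with either target's siRNAs pooled. MEIS1 (0.94, SE 0.203, adjusted p = 0.00393) and TGIF2 (0.79) rose with KMT2D siRNA2, and with KMT2C siRNA2 PBX3 (0.74) rose and MEIS2 (-1.08, SE 0.2, adjusted p = 0.0015) fell. Of these 4 calls, only that of MEIS2 held with every library left out, and that of MEIS1 ended without the SUIT2 control. With KMT2C siRNA against KMT2D siRNA, PBX2 was higher (0.64) and MEIS1 lower (-0.58), the second call ending with any of several libraries left out and with the siRNA block (adjusted p = 0.133). Of 19 tested flanking genes, CBX1 fell with KMT2D siRNA1, CBX5 with KMT2D siRNA2 and SNX10 with KMT2C siRNA2, JAZF1 rose with KMT2C siRNA1 and with KMT2C siRNA2, and ATF7 was higher with KMT2C than with KMT2D siRNA, and of these the calls of CBX1 and SNX10 held with every library left out. The call of ATF7 also ended with the siRNA block (adjusted p = 0.091).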

How the data were processed

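Total RNA was measured by sequencing in the 18 libraries, 1 per sample. The submitters' processing notes name the build hg19 and the tools FastQC, TopHat2, HTSeq and edgeR; the annotation release and the strandedness of counting were not given in the sources used here. The deposited values are whole-number counts of read pairs for each Ensembl identifier. Entries that name no gene (32.98% to 53.39% of read pairs) were left out. They include pairs marked ambiguous between genes (4.77% to 7.14%).

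Symbols were matched to identifiers by a separate list of gene names, with the GENCODE v29 name where that list gave none. GENCODE v29 gave exon lengths and overlaps. Of the 38 HOX genes, 23 share exon sequence with another gene. In 9 the share is over 20% of exon length: HOXA4, HOXA6, HOXA7, HOXA9, HOXA10, HOXA11, HOXB6, HOXC5 and HOXD11. CPM are TMM-scaled; library log2 values used a prior count of 2. The tests were edgeR 4.0.16 quasi-likelihood F tests in R 4.3.3 on 21028 genes (filter: minimum count 10, minimum total 15), with designs of line plus target, line plus siRNA, or 9 groups of line by target (13, 10 and 9 residual degrees of freedom). SE was derived from F and the log2 fold change. The fit was tested on simulated data. Alternatives were DESeq2 1.42.0, RLE factors, no filter, limma-voom 3.58.1 with an siRNA block, no line term, leaving out each library and, chosen after seeing the data, leaving out the 3 libraries with over 20% of read pairs in no feature. DESeq2 was run with the same designs.

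Libraries of a group differed by more than sampling noise, so none was treated as a copy. Genes named were the HOX genes called in a comparison, the 3 with the smallest p where none was called, the 3 highest per kb in each line, and called genes of 4 lists. The HOX genes and lists were chosen with earlier results of these data known. The values of 1 listed cofactor are not reported here.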

Additional observations from a re-analysis of the deposited data

Results flagged for a closer look

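Among 51 groups of 6 libraries (a HOX gene in a line where it is on), 1 library stood apart. HOXA10 in COLO357 with KMT2D siRNA1 was at 13.6 CPM, while the other 5 libraries of the line lay between 8.59 and 9.28 CPM. The gap was 0.862 of the whole range, above the limit of 0.625 for 6 libraries. Chance puts about 1 in 20 groups past this limit.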

How the results depend on the processing

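Of the 70 calls between lines, 67 held in all alternatives and none reversed; those lost in at least 1 were HOXA2 and HOXD1 for PANC1 against SUIT2 and HOXC5 for COLO357 against SUIT2. No called HOX gene changed direction. With KMT2D siRNA2 the count of 2 became 0 with no cell line term and 1 to 3 with a library left out. With KMT2C siRNA2 the count of 0 became 1 (HOXA13) with no filter and 0 to 1 with a library left out. For KMT2C against KMT2D siRNA the count of 1 became 1 to 2 with a library left out, HOXA3 being added without PANC1 KMT2D siRNA2. The number of HOX genes on in SUIT2 was 8 at 1 CPM per kb of exon.

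The siRNA numbers do not mark a shared culture or day in the labels. Deviations of libraries with the same siRNA in different lines correlated at 0.056 to 0.379. In 30 of 30 cases a library correlated best with its own number. Libraries of a target with the same number received the same siRNA, so the match cannot show a shared culture or day, which was not tested. The cases are also not independent. KMT2D siRNA1 and KMT2D siRNA2 gave identical correlations between lines, at 0.283, 0.379 and 0.29. The siRNA as a replicate block in limma-voom gave 0 called HOX genes for KMT2C against KMT2D siRNA and changed no other count of HOX genes called by target.

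Genes under 1 CPM rest on few counts, and 1 control library per line limits every comparison with control.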
